A study of Mus musculus with 4 samples.

Results

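The nuclear genes of the mitochondrial respiratory chain were followed across 4 cultures of mouse embryonic stem (ES) cells that differ in their copies of BAF250. A gene was taken as a member when its platform symbol starts with Nduf, Uqcr, Cox4, Cox5, Cox6, Cox7, Cox8 or Atp5, or with Sdh and a further letter, or is Cyc1 or Cycs, with pseudogenes left out. This rule uses no measured value and found 96 of the 18194 genes on the array, carried by 190 of its 45101 probe sets. Each gene is represented by its brightest probe set that names it alone. The members are 34 subunits and 8 assembly factors of complex I, 4 subunits and 4 assembly factors of complex II, 9 genes of complex III, cytochrome c, 19 genes of complex IV and 17 of complex V. Subunits encoded in the mitochondrial genome do not carry these symbols and are not covered.

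Total RNA of each culture was hybridised to 1 Affymetrix array. The labels name a pair of lines homozygous for the BAF250 knock-out, ko1 and ko2, 1 heterozygous knock-out line (het) and 1 wild type line (wt). All 4 were cultured free of feeder cells on gelatin in GMEM with fetal bovine serum, pyruvate and leukaemia inhibitory factor. The letter of the BAF250 gene, the targeted exons, and the strain and clonal history of the lines are not stated by the labels, and each line stands for itself. Only the homozygous group has more than 1 array, so p-values measure the spread between ko1 and ko2, lent to the single wild type and heterozygous arrays, and nothing says that the RNAs came from repeated cultures.

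The respiratory chain lies in the inner mitochondrial membrane. Complexes I and II pass electrons from NADH and succinate to ubiquinone, complex III passes them to cytochrome c, and complex IV to oxygen, while complexes I, III and IV pump protons that drive the ATP synthase, complex V. Most subunits are encoded in the nucleus and imported, and assembly factors that do not stay in the finished complex help to build it. ES cells are known for a metabolism that leans on glycolysis beside respiration, and several subunits have alternative isoforms that are used in muscle, lung or testis.

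Some features of the arrays bear on every value. The wild type array was brighter than the rest. In log2 units, the median of the 13730 genes tested lay at -0.75 in homozygous minus wild type and at -0.68 in heterozygous minus wild type, but at -0.03 between homozygous and heterozygous. Differences are therefore given on the log2(signal + 0.675) scale, less the median of all tested genes in that comparison (below: relative to the median gene), with their standard error (SE). Adjusted p-values come from limma on the signals as deposited unless stated. They thus test the difference with the shift between arrays left in, not the relative difference printed beside them. At an equal relative size and SE, a fall from wild type had a smaller p than a rise. Background was set as the brightest of 27 control probe sets for bacterial transcripts that are not spiked, and stood at 5.55 in ko1, 3.82 in ko2, 7.57 in wt and 6.92 in het. The ratio of 3' to 5' actin control signal, a sign of RNA quality, was 5.01 in ko1, 2.61 in ko2, 1.30 in wt and 2.86 in het. Arid1a, the gene of BAF250a, stood at -3.52 ± 0.61 for homozygous minus wild type (limma adjusted p = 7.68e-06). The 8 ES cell markers (Pou5f1, Sox2, Nanog, Zfp42, Esrrb, Fgf4, Utf1 and Tdgf1) were above background on all 4 arrays, with a summed signal of 93.6 in ko1, 140.1 in ko2, 922 in wt and 400.2 in het. The 8 endoderm markers summed to 5909 in ko1, 3388 in ko2, 141 in wt and 96.2 in het; Sox17, Gata6 and Foxa2 were at background in wt and het, and all 8 were above it in ko1 and ko2. The 8 fibroblast markers summed to 37.1, 53.5, 32.0 and 19.2 in ko1, ko2, wt and het, with 4 of 8 above background in ko2, 3 in ko1, 2 in wt and 0 in het. The homozygous cultures therefore differed from the others in cell type markers, and the part of these markers in the values below was not tested. In bulk RNA, fewer cells of a type and less RNA per cell cannot be told apart.

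Most genes of the respiratory chain read above background in all 4 cultures. Of the 96 members, 78 read above background on every array, 11 on some and 7 on none. The median member signal was 50.01 in ko1, 36.8 in ko2, 59.2 in wt and 35.2 in het. Of the 94 members past the filter on dim genes, 68 were among the brightest decile of the genes tested, so that decile, 1373 genes, is given as a second background beside all genes. The members read at background on every array were the assembly factors Ndufaf1, Ndufaf2 and Ndufaf5, and Cox7a1, Cox7b2, Cox7c and Cox8b of complex IV. Cox7b2 and Cox8b were too dim to be tested.

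**Figure D1:**
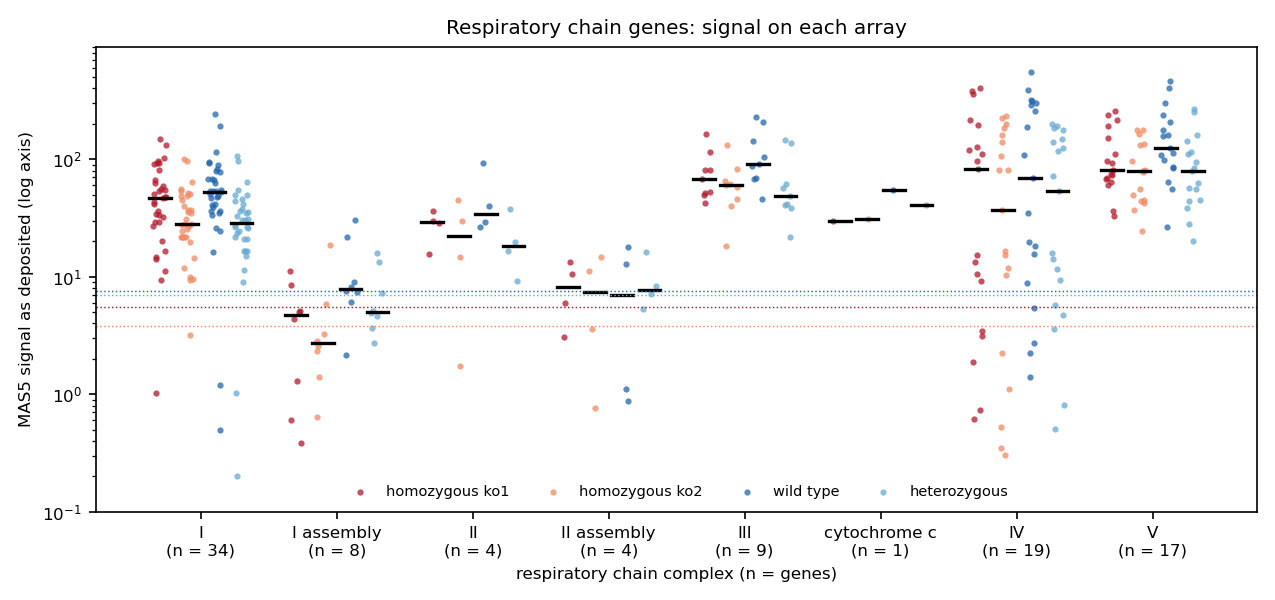
MAS5 signal (log axis) of the 96 members on each array, grouped by complex. Each point is a gene, black bars are medians, and dotted lines mark the background of each array in its colour. The medians of complexes I, III, IV and V lie well above background on all 4 arrays, whereas the assembly factors lie near it.

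Between homozygous and wild type cells, which differ in both BAF250 copies, no respiratory chain gene passed the test. In limma, 0 of 94 members were called at an adjusted p below 0.05, against 1.02% of all genes tested (140 of 13730). At an unadjusted p below 0.05, 12 members (12.8%) were lower and 0 higher in the homozygous lines, against 11.9% of all genes either way and 10.1% lower. After each array was centred on its median gene, the count was 2 members (2.13%), both lower, against 6.97% of all genes. As deposited the members' share is close to the background, and after centring it is under it. The median over the 94 members was 0.15 above the median gene, with quartiles at -0.25 and 0.47. The brightest decile of genes stood at -0.04. Members above the median gene numbered 57, and 37 lay below it.

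The median member did not hold its place between the homozygous lines. Against wild type it stood at 0.16 in ko1, with 59 of 94 members above the median gene, and at -0.08 in ko2, with 40 of 94 above, so its sign differed between the lines. Relative to the median gene, ko1 exceeded ko2 in 62 of 94 members, by a median of 0.24, and the same held for 61.8% of the brightest decile of genes. The spread of the members' median between the lines was 0.17 (SD, n = 2), as large as the median itself. A single member differed between ko1 and ko2 by a median of 0.44 in size, against 0.72 over all genes and 0.42 over the brightest decile.

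Single members stayed close to the median gene more often than other genes did. In homozygous minus wild type, 84 of 94 members (89.4%) lay within 1 log2 unit of the median gene, against 64.9% of all genes tested and 75.5% of the brightest decile. Within 0.5 log2 units the shares were 63.8%, 38.4% and 47.1%. The median SE of a member was 0.57, from 0.53 to 1.53, and the smallest difference called in any gene was 2.02 as deposited. On that scale, no change under that size was called with these 4 arrays. Because the median gene lay at -0.75, falls relative to it could be called at smaller sizes and rises only at larger ones. A missed call does not show equal levels.

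The comparison of homozygous with heterozygous cells gave a like picture. No member was called (0 of 94), against 0.757% of all genes tested (104 of 13730). At an unadjusted p below 0.05 there were 4 members (4.26%), Ndufa2 and Cox4i2 higher and Ndufaf3 and Ndufa4l2 lower, against 6.88% of all genes; after median centring the count was again 4 (4.26%), against 6.55%. The median member stood 0.20 above the median gene, 0.30 for ko1 and 0.03 for ko2, and the brightest decile stood at 0.02. Of the members, 81 (86.2%) lay within 1 log2 unit, against 63.3% of all genes and 76.4% of the brightest decile.

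In heterozygous minus wild type, each group with 1 array, 0 of 94 members were called, against 0.0146% of all genes (2 of 13730). At an unadjusted p below 0.05, 7 members (7.45%), all lower, stood beside 7.56% of all genes, and after median centring 2 members (2.13%) beside 3.18%. These 2 were Cox4i2 and Atp5o. The median member stood at -0.13 and the brightest decile at -0.08. Within 1 log2 unit lay 93.6% of the members, 65.1% of all genes and 91.3% of the brightest decile. The comparisons share their arrays, the homozygous pair, wild type or heterozygous, so their values are not independent of each other.

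**Figure D2:**
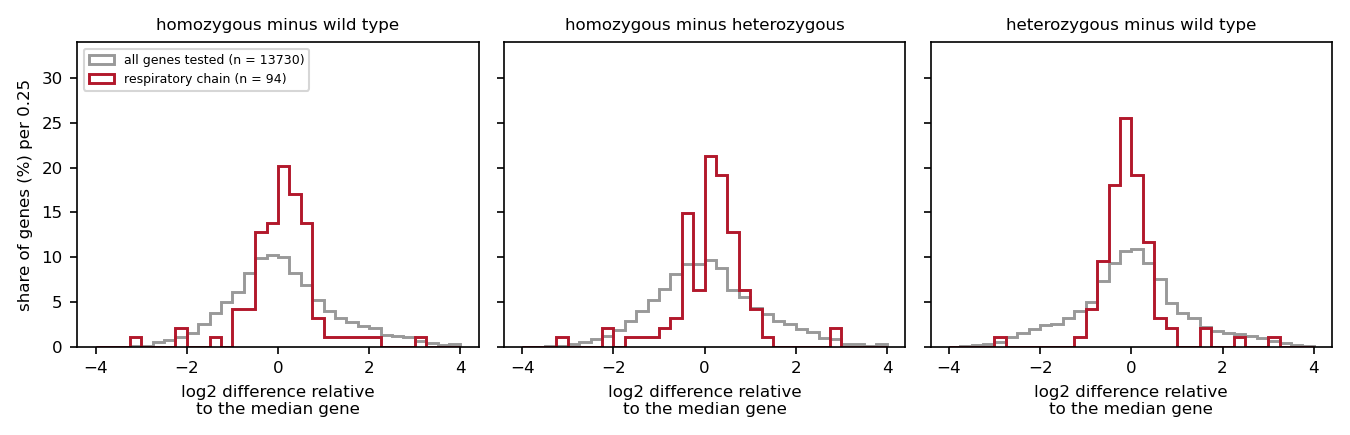
Share of genes (%) per 0.25 log2 units of difference relative to the median gene, in each of the 3 comparisons, for the 94 members tested (red) and all 13730 genes tested (grey); values beyond 4 are drawn in the outermost bins. The members form a narrower peak than all genes, with 89.4%, 86.2% and 93.6% within 1 log2 unit.

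As deposited, both homozygous arrays lay below wild type and heterozygous in 17 members (18.1%), against 26.9% of all genes tested, and above both in 4 members (4.26%), against 11% of all genes. The 4 above were Ndufa2, Ndufa8, Ndufb4 and Cox6a2. The 17 below were Ndufa7, Ndufaf2, Ndufaf3, Ndufaf4 and Ndufaf6 of complex I, Cyc1 and Uqcrfs1 of complex III, Cycs, and Cox5a, Cox7a2, Cox7c, Cox8c and Ndufa4l2 of complex IV, with Atp5b, Atp5g1, Atp5g3 and Atp5mpl of complex V. Among the 17, Ndufaf2 and Cox7c read under background on all 4 arrays, and Ndufaf6 was above it in wt alone. Among the 4, Ndufb4 was above background in ko1 alone. The order of the arrays cannot be relied on for these genes. After median centring the split was 17 below (18.1%, against 21.4% of all genes) and 18 above (19.1%, against 18.1%), so the split between lower and higher members changed with the scaling of the arrays. Quantile normalization gave 16 below (17%, against 21.6%) and 24 above (25.5%, against 18.3%). As deposited, wild type was the highest array in 65 members (69.1%, against 55.1% of all genes), het the lowest in 39 (41.5%, against 30.8%) and ko2 in 37 (39.4%, against 32.7%).

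The promoters of these genes are known for sites of NRF1, of the ETS factor GABPA and of YY1, which bind many genes of mitochondrial proteins, so the sequences were searched for these motifs. RefSeq (GRCm38.p6) gave a window from 250 bases before to 50 after the transcription start for 79 of the 96 members; the first window was used for the 5 members with several. The NRF1 motif GCGCANGCG, read on both strands (it is close to a palindrome, so hits on the 2 strands can overlap), was in 22 windows (27.8%), against 10.6% of the 14368 windows of genes on the array. The ETS core CCGGAAG was in 21 (26.6%, against 13.8%) and the YY1 motif AAGATGGCG in 6 (7.59%, against 2.35%). At least 1 of these was in 41 windows (51.9%, against 23.8%). The windows held a median of 20 CpG, against 17 for the genes on the array. A match is a run of letters and does not show binding. The windows below show what these motifs look like in genes whose values follow, written 5' to 3' on the strand of the gene, with the motif in capitals on either strand.
Cytochrome c, with 1 NRF1 motif, is the first.
Cycs, chr6:50566570-50566669, minus strand: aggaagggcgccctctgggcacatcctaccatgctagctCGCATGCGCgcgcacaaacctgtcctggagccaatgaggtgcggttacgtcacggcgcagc
Sdha, the flavoprotein of complex II, holds 3.
Sdha, chr13:74350241-74350350, minus strand: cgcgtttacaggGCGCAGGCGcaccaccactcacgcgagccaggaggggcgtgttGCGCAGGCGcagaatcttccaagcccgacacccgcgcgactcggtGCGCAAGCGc
Ndufa8 of complex I, among the members that were higher in both homozygous lines, holds 2 just before its start.
Ndufa8, chr2:36049339-36049378, minus strand: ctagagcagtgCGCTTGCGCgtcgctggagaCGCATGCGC
Cox6a1, Sdhd and Atp5h hold both NRF1 and ETS motifs.
Cox6a1, chr5:115348959-115349128, minus strand: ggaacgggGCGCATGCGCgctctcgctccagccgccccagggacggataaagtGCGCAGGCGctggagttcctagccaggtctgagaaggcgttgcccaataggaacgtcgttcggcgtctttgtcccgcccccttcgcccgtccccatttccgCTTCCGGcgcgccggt
Sdhd, chr9:50603850-50603939, minus strand: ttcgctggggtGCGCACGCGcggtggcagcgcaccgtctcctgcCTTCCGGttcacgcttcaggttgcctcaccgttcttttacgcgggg
Atp5h, chr11:115419950-115420069, minus strand: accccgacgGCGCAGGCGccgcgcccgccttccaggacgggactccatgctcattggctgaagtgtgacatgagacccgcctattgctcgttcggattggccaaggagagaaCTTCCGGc
Ndufs3, a core subunit of complex I, holds the ETS core just before its start.
Ndufs3, chr2:90904722-90904761, minus strand: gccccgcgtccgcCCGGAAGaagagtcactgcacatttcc
Ndufa9 and Ndufs7 hold the YY1 motif just after the start.
Ndufa9, chr6:126849100-126849124, minus strand: ttgtgggagAAGATGGCGgccgccg
Ndufs7, chr10:80249464-80249488, plus strand: gccgaggccAAGATGGCGgcgctgg

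The differences of members with and without a motif were set side by side. Homozygous minus wild type stood at a median of 0.23 in the 41 tested members with any motif and 0.13 in the 36 without. With and without the NRF1 motif the medians were 0.22 (22 members) and 0.16 (55 members), and with and without the ETS core 0.48 (21 members) and 0.10 (56 members). The 6 members with the YY1 motif stood at 0.02 and the 71 without it at 0.19. For homozygous minus heterozygous, the medians with and without the ETS core were 0.33 and 0.20, and with and without the YY1 motif 0.03 and 0.24. Whether members with and without a motif differ was not tested. Nrf1 itself, a gene outside the members, read 10.3 in ko1, 6.63 in ko2, 32.5 in wt and 15.2 in het (-1.15 ± 0.67, limma adjusted p = 0.216).

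Complex I, the NADH dehydrogenase, is the largest complex, and its 34 subunits stood at a median of 0.21 for homozygous minus wild type, with 23 above and 11 below the median gene. The sign differed between the lines, 0.34 in ko1 with 24 above and -0.09 in ko2 with 14 above. Against heterozygous the median was 0.35, 0.41 for ko1 and 0.10 for ko2. Ndufs1, the large iron-sulphur subunit that takes electrons in the peripheral arm, read 16.5 in ko1, 9.90 in ko2, 41.2 in wt and 15.1 in het. The wild type array alone was high, and the homozygous lines overlapped het. Its difference from wild type was -0.89 ± 0.62 (limma adjusted p = 0.264, and 0.765 after median centring), the lowest of the complex. Ndufb6, an accessory subunit of the membrane arm, read 34.1, 11.8, 52.1 and 27.4 in the same order, with ko1 and ko2 on either side of het (-0.60 ± 0.59, limma adjusted p = 0.36).

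With their brightest probe sets, the other core subunits of complex I lay between -0.17 and 0.66 relative to the median gene. Over all probe sets above background, Ndufv2 ran from -0.17 to 1.36, Ndufs8 from -0.68 to 0.48 and Ndufv1 from -0.10 to 0.14. The sign of these genes thus depends on the probe set. Ndufv1, which binds NADH and flavin, read 53.9 in ko1, 35.5 in ko2, 79.2 in wt and 44.3 in het (-0.10). Ndufv2, its iron-sulphur partner, read 47.7, 26.9, 68.2 and 35.1 (-0.17). Ndufs3, whose ETS core is printed above, read 50.1, 27.4, 39.3 and 33.1 (0.66). In each of these 3 genes het lay between the homozygous lines. Ndufs7 and Ndufs8, the iron-sulphur subunits next to the ubiquinone site, differed from wild type by 0.05 and 0.48. Ndufs7 read 47.4 in ko1, 31.0 in ko2, 62.4 in wt and 35.4 in het, and Ndufs8 read 67.1, 48.1, 68.3 and 46.2.

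Among accessory subunits of complex I, some stood above wild type in both homozygous lines. Ndufa8, an intermembrane space subunit whose promoter is printed above, read 55.5 in ko1, 36.7 in ko2, 33.3 in wt and 23.4 in het. Both homozygous arrays were the highest, although ko2 exceeded wt by little as deposited. The difference relative to the median gene was 1.18 ± 0.55 (limma adjusted p = 0.715, and 0.741 after median centring). Ndufa2 read 62.2, 55.7, 50.4 and 26.5, with the same order of groups (0.97 ± 0.53, limma adjusted p = 0.848); against heterozygous it stood at 1.17 ± 0.53 (limma adjusted p = 0.677). Ndufb4 read 9.28 in ko1, 3.20 in ko2, 0.492 in wt and 0.202 in het, above background in ko1 alone, so its 3.16 ± 1.53 (limma adjusted p = 0.498) rests on 1 array. Ndufb1 likewise was above background in ko2 alone (1.02, 9.53, 1.196 and 1.02). No fold is given for either.

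The assembly factors of complex I were dim, and only Ndufaf8 was above background on all 4 arrays (8.48 in ko1, 18.6 in ko2, 30.1 in wt and 15.9 in het). Their 8 genes stood at a median of -0.09 for homozygous minus wild type and -0.34 for homozygous minus heterozygous. Ndufaf3, which helps to build the module that binds ubiquinone, read 0.382 in ko1, 1.404 in ko2, 21.7 in wt and 13.4 in het. It was at background in both homozygous lines and above it in wt and het, with no overlap. Set against background it was at least 2.81-fold lower than wild type and at least 2.84-fold lower than heterozygous, relative to the median gene. The fitted differences were -3.17 ± 1.12 (limma adjusted p = 0.0728, and 0.435 after median centring) and -3.21 ± 1.12 (limma adjusted p = 0.298, and 0.486 after median centring). Het lay 0.01 from wild type. Against wild type, Ndufaf3 had the smallest limma adjusted p of any member. It passed with a pseudocount at the 40th percentile of signals (adjusted p = 0.0315) and when wild type and heterozygous were pooled as 1 group against ko1 and ko2 (adjusted p = 0.0291), and reached 0.545 at most over the other settings. Only 1 probe set names Ndufaf3.

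Ndufaf4, the known partner of Ndufaf3, read 5.04 in ko1, 5.89 in ko2, 8.96 in wt and 7.21 in het, close to background throughout (0.09 ± 0.91). Ndufaf6 read 0.601, 0.644, 8.18 and 4.88, above background in wt alone, and at least 1.06-fold lower than wild type on the scale of the bound (-2.03 ± 1.42, limma adjusted p = 0.434). Ndufaf5 and Ndufaf7, the highest of the list at 0.71 and 0.33, were at background on all 4 arrays and on 3.

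Complex II, the succinate dehydrogenase, is shared with the citric acid cycle, and its 4 subunits did not move together. Their median was -0.30 for homozygous minus wild type, -0.47 in ko2 and 0.01 in ko1, and 0.13 for homozygous minus heterozygous. Sdha, which binds succinate, read 30.0 in ko1, 14.8 in ko2, 39.9 in wt and 19.7 in het with its brightest probe set (-0.15 ± 0.59). Another Sdha probe set above background read 7.50, 11.8, 15.2 and 14.1, with ko2 above ko1 and both below het (0.09). The sign of Sdha and the order of the homozygous lines thus depend on the probe set. Sdhb, the iron-sulphur subunit, read 36.4, 44.7, 92.7 and 37.8, with wild type alone high (-0.44 ± 0.53, limma adjusted p = 0.377; heterozygous minus wild type -0.60). Sdhc, a membrane anchor, read 15.6, 1.73, 26.5 and 9.25 with its brightest probe set, where ko2 alone was at background (-1.37 ± 0.84, limma adjusted p = 0.29; ko1 alone -0.15). Its second probe set read 1.52, 15.4, 10.9 and 7.07, with ko1 at background and ko2 highest, so the probe sets gave opposite orders of the homozygous lines and no direction is drawn for Sdhc. Sdhd, the other anchor, read 28.5, 29.5, 29.0 and 16.6, with both homozygous lines level with wild type as deposited, which is 0.74 ± 0.57 above the median gene (limma adjusted p = 0.999).

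The assembly factors of complex II were dim as well. Sdhaf2, which inserts flavin into Sdha, read 10.5 in ko1, 14.6 in ko2, 12.9 in wt and 16.1 in het, and Sdhaf4, a chaperone of Sdha, read 13.4, 11.2, 17.8 and 8.39. These differed from wild type by 0.69 and 0.23. Sdhaf1 and Sdhaf3, which serve the iron-sulphur clusters of Sdhb, were above background on 1 array each, Sdhaf1 in ko1 (5.92) and Sdhaf3 in het (7.13), so the list's median of 1.11 rests partly on values under background.

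Complex III, the cytochrome bc1 complex, was the most even: its 9 genes lay between -0.41 and 0.43 for homozygous minus wild type, with a median of 0.12 (0.10 in ko1 and -0.02 in ko2), and all were above background on all arrays. Cyc1, the cytochrome c1 that hands on the electron, read 114.5 in ko1, 83.2 in ko2, 207 in wt and 136 in het, lowest in both homozygous lines (-0.33 ± 0.58, limma adjusted p = 0.443). Uqcrfs1, the Rieske iron-sulphur protein, read 42.0, 40.2, 69.6 and 57.1, again lowest in both (-0.00 relative to wild type and -0.44 relative to heterozygous). Uqcrc1, a core protein, read 68.3, 60.4, 143 and 61.8, where the homozygous lines overlapped het (-0.41 ± 0.54, limma adjusted p = 0.394). Uqcrc2, the other core protein, read 49.96, 18.2, 45.5 and 21.8, with ko1 highest and ko2 lowest (0.17 ± 0.58). With the brightest probe sets, the highest were the small subunits Uqcr10, at 81.2, 61.5, 88.1 and 48.6 (0.43), and Uqcrq, at 80.1, 57.5, 90.4 and 41.3 (0.34). Another probe set above background gave -0.40 for Uqcr10 and -0.19 for Uqcrq, so the sign of both depends on the probe set.

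Cytochrome c, the mobile carrier between complexes III and IV and a trigger of apoptosis when released, read 29.7 in ko1, 31.0 in ko2, 55.1 in wt and 40.8 in het. With this brightest probe set, both homozygous lines were lowest and close to each other. The difference was -0.10 ± 0.54 relative to wild type (limma adjusted p = 0.499) and -0.39 ± 0.54 relative to heterozygous (limma adjusted p = 0.917). A second probe set above background read 36.9 in ko1, 25.3 in ko2, 45.4 in wt and 34.3 in het. There ko1 lay above het, and the differences were 0.18 from wild type and -0.13 from heterozygous. The order of the lines and the sign against wild type thus depend on the probe set. The Cycs gene lies on chromosome 6.

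Complex IV, cytochrome c oxidase, spread more widely than complex III. Its 17 tested genes stood at a median of 0.11 for homozygous minus wild type, from -2.14 to 1.31. The median was 0.16 in ko1 and -0.24 in ko2, where 6 of 17 lay above the median gene. Of its subunits found in most tissues, Cox4i1 read 359.7 in ko1, 184 in ko2, 389.6 in wt and 200.4 in het (0.15 ± 0.69), and Cox5b read 377, 200.2, 299 and 149.6 (0.62 ± 0.67). In both, ko1 and wt were high and ko2 and het low, so the groups overlapped. Cox5a, which binds Cox4 in the complex, read 96.9, 80.4, 258 and 141; both homozygous lines were lowest, at -0.79 ± 0.57 against wild type (limma adjusted p = 0.254) and -0.64 ± 0.57 against heterozygous (limma adjusted p = 0.88). Cox6c read 195, 226, 549 and 191 with its brightest probe set. There wild type alone was high (-0.64 ± 0.67, limma adjusted p = 0.413, and heterozygous minus wild type -0.84). A second, much dimmer probe set above background read 9.10, 9.56, 15.6 and 12.3, with both homozygous lines below het. It gave 0.04 for homozygous minus wild type and 0.36 for heterozygous minus wild type. The sign of both differences of Cox6c thus depends on the probe set. Cox7c, although a constant part of the complex, read under background on every array with its brightest probe set (3.48, 0.303, 5.38 and 4.75) and gives no usable difference.

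Pairs of isoforms at the same place in complex IV were both measured in several cases. Cox4i2, the lung isoform of Cox4i1, read 9.20 in ko1, 10.3 in ko2, 15.5 in wt and 0.816 in het, the het value alone under background. Homozygous minus heterozygous was 2.84 ± 0.92 (limma adjusted p = 0.248) and heterozygous minus wild type -2.76 ± 1.06 (limma adjusted p = 0.431), the smallest adjusted p of any member in these comparisons. Set against background, het was at least 1.39-fold lower than wild type and at least 1.44-fold lower than the homozygous lines, and only 1 probe set on 1 array shows it. Cox6a1, the isoform of most tissues, read 405, 234, 314 and 177 (0.72 ± 0.69), and Cox6a2, that of heart and muscle, read 15.3, 11.9, 8.89 and 9.43 (1.31 ± 0.72, limma adjusted p = 0.715). Cox6a2 was above both other groups in both homozygous lines, the highest value of complex IV relative to the median gene. Cox6b1 read 217, 106, 186 and 118 (0.45) and the testis isoform Cox6b2 read 13.4, 16.5, 18.2 and 14.3 (0.47).

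The isoforms of Cox7 and Cox8 lay on both sides of the median gene. Cox7a2 read 119 in ko1, 141 in ko2, 286 in wt and 185 in het with its brightest probe set. There it was lowest in both homozygous lines (-0.40 ± 0.61). Its second probe set read 80.3, 102.5, 116.3 and 68.4, with het lowest (0.39), so no direction is drawn for Cox7a2. Cox7a2l, which joins complex IV to complex III, read 111, 37.0, 69.7 and 53.7, with ko1 and ko2 at opposite ends (0.63 ± 0.57). Cox7a1, the muscle isoform, was at background. Cox8a, the general isoform, read 127, 160.3, 318 and 124 (-0.40 ± 0.60), and Cox8c, the testis isoform, read 10.5, 15.2, 34.96 and 15.9 (-0.67 ± 0.62, limma adjusted p = 0.36). Cox8b, the muscle isoform, and Cox7b2, the testis isoform, read 3.56 and 1.41 at most and were under background everywhere.

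Ndufa4, a subunit first placed in complex I and now in complex IV, read 83.2 in ko1, 80.2 in ko2, 109 in wt and 72.1 in het (0.33 ± 0.54). Its paralogue Ndufa4l2, known to be induced by hypoxia, read 1.88, 2.25, 19.6 and 11.5. It was at background in both homozygous lines and above it in the others, the same split as Ndufaf3. Set against background, it was at least 2.54-fold lower than in wild type and at least 2.44-fold lower than in het. The fitted differences were -2.14 ± 0.97 (limma adjusted p = 0.167; 0.113 to 0.706 over the other settings) and -2.12 ± 0.97 (limma adjusted p = 0.624), with het at -0.05 from wild type.

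**Figure D3:**
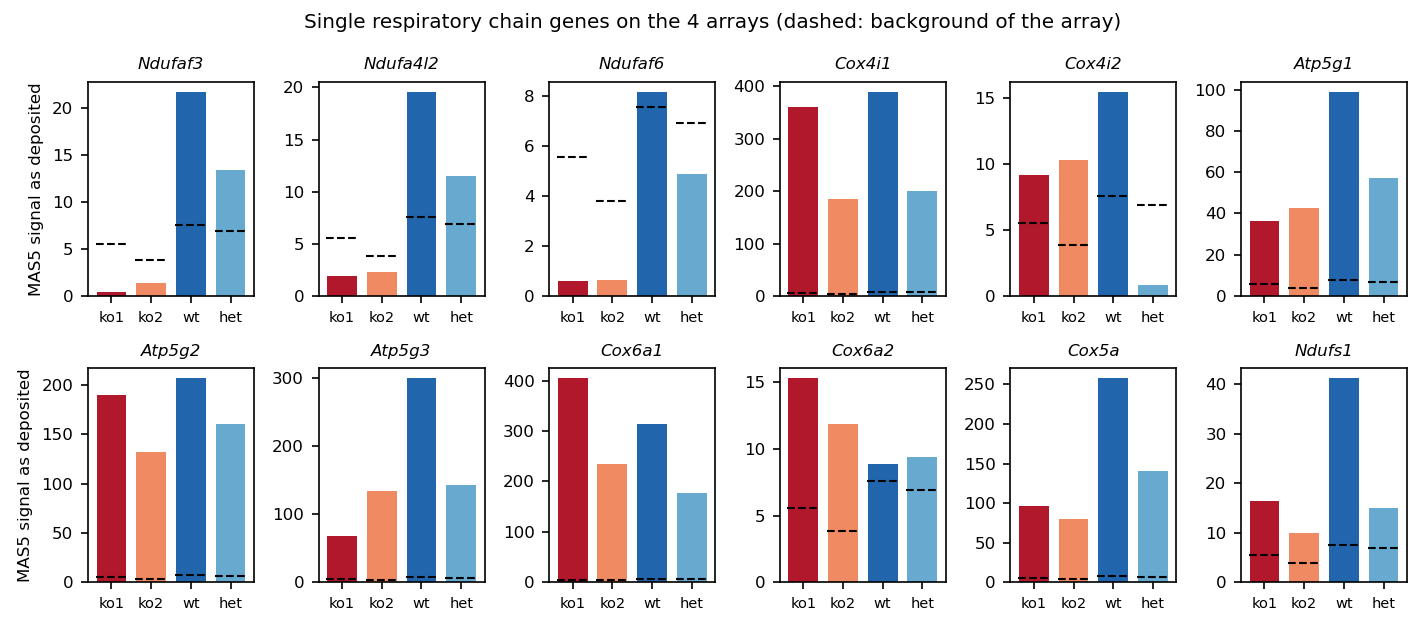
MAS5 signal as deposited (linear axes from 0, each panel with its own scale) of 12 members on the 4 arrays; dashed lines mark the background of the array. Ndufaf3 and Ndufa4l2 are under background in ko1 and ko2 and above it in wt and het, and Cox4i2 is under background in het alone.

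Complex V, the ATP synthase, stood at a median of 0.14 for homozygous minus wild type over 17 genes, 0.14 in ko1 and -0.00 in ko2. Single genes ran from -0.90 to 0.83, all above background on every array. Atp5b, the catalytic beta subunit of the head, read 236 in ko1, 176 in ko2, 405 in wt and 269 in het (-0.24 ± 0.67), and Atp5a1, the alpha subunit, read 255, 165, 459.8 and 253 (-0.42 ± 0.68, limma adjusted p = 0.467). Atp5c1, the gamma subunit of the rotating stalk, read 151, 97.1, 177 and 111 (0.20 ± 0.58). In Atp5b both homozygous lines were lowest, while in Atp5a1 and Atp5c1 ko1 passed het.

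Atp5g1, Atp5g2 and Atp5g3 encode the same mature c subunit, which forms the ring in the membrane, and their values were not alike. Atp5g1 read 36.1 in ko1, 42.7 in ko2, 99.0 in wt and 57.0 in het, lowest in both homozygous lines (-0.57 ± 0.53, limma adjusted p = 0.306). Atp5g3 read 67.7, 134, 299.7 and 144, also lowest in both (-0.90 ± 0.59, limma adjusted p = 0.229), with ko1 at -1.55 and ko2 at -0.40. Atp5g2 read 189.6, 133, 207 and 160, with ko1 above het and ko2 below it (0.36 ± 0.61, limma adjusted p = 0.767). None of the c subunit genes passed the test.

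With the brightest probe sets, the highest values of complex V were those of Atp5md and Atp5l, small subunits of the membrane part. Others of that part, Atp5k at -0.24, Atp5j2 at -0.12 and Atp5mpl at 0.27, lay lower. Over the probe sets above background, Atp5k ran from -0.24 to 0.96 and Atp5j2 from -0.12 to 0.15. The place of Atp5k below Atp5md and Atp5l thus depends on the probe set. Atp5md read 32.6 in ko1, 24.4 in ko2, 26.5 in wt and 20.1 in het (0.83 ± 0.57, limma adjusted p = 0.944) and Atp5l read 73.0, 44.2, 56.0 and 28.1 (0.77 ± 0.54, limma adjusted p = 0.987). In both, wild type lay between the homozygous lines as deposited. Atp5o, the subunit that ties the head to the side stalk, read 110, 79.0, 159 and 44.8; het alone was low, at -1.13 ± 0.63 against wild type (limma adjusted p = 0.527).

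**Figure D4:**
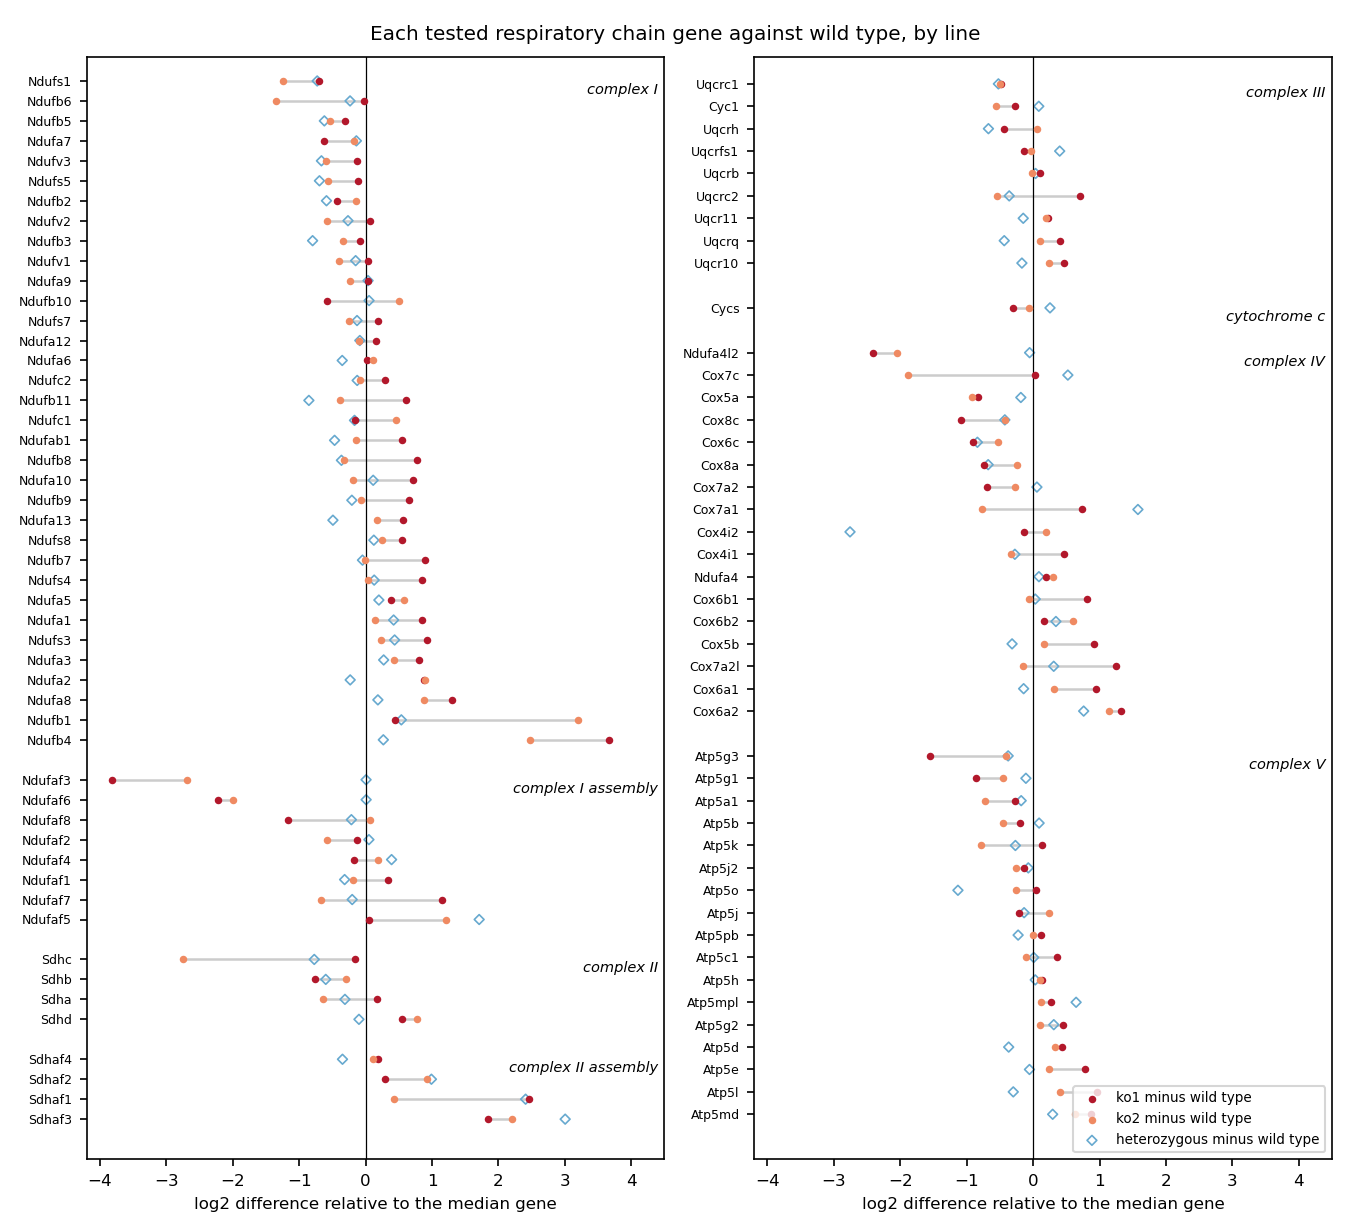
Log2 difference from wild type relative to the median gene for the 94 tested members, by complex, in ko1 and ko2 (filled, joined by a grey line) and het (open diamond). Most members lie within 1 log2 unit of 0; Ndufaf3, Ndufaf6 and Ndufa4l2 stand far to the left in both homozygous lines and near 0 in het, but are at background there.

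Different probe sets of a member did not always give the same sign. Of 36 members with at least 2 probe sets above background, the homozygous minus wild type difference ranged by a median of 0.35 between probe sets, and 18 had probe sets on both sides of the median gene. The widest was Ndufb11, a membrane arm subunit on the X chromosome, from -0.19 to 1.43. Its brightest probe set read 90.1 in ko1, 40.1 in ko2, 88.6 in wt and 30.2 in het, and another 58.6, 51.4, 33.99 and 44.0. Averaging all probe sets of a gene moved the members' median for homozygous minus wild type from 0.15 to -0.02.

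Genes that serve the chain without being members were set beside it as lists, by their medians, within which single genes lay on both sides of the median gene. For homozygous minus wild type, the 27 tested assembly factors outside the rule stood at -0.07, 12 genes of coenzyme Q synthesis at 0.03, 20 of the citric acid cycle and pyruvate dehydrogenase at 0.04, 12 carriers and uncoupling proteins at -0.09, 22 of mitochondrial import at 0.08 and 12 of mitochondrial genome maintenance and transcription at 0.13, and none of these lists had a called gene. The 11 genes of supercomplexes and cristae stood at 0.56, although their called gene, Immt, the mitofilin of cristae junctions, fell: it read 9.003 in ko1, 21.8 in ko2, 68.0 in wt and 28.2 in het (-1.47 ± 0.59, limma adjusted p = 0.049). The 76 mitochondrial ribosomal protein genes stood at -0.22, with 1 called, Mrpl34, which fell (9.82, 9.27, 49.5 and 22.6; -1.55 ± 0.61, limma adjusted p = 0.0491). Each of these calls was lost in 8 of 9 other settings, all but the pseudocount at the 40th percentile of signals, with limma adjusted p up to 0.735 for Immt and 0.545 for Mrpl34. The 10 tested regulators of respiratory genes, among them Nrf1, stood at -1.09, with ko1 at -1.22 and ko2 at -0.19, and 0 were called; against heterozygous the list stood at 0.05, and heterozygous minus wild type at -0.55. In that list the coactivator gene Ppargc1a read 0.254 in ko1, 6.67 in ko2, 9.13 in wt and 0.618 in het. The receptor gene Esrra read 0.779, 6.62, 12.8 and 1.54. Both were under background in ko1 and het, so the list's median rests partly on values under background. In the same comparison the 8 ES cell markers stood at -2.20, with 6 called lower, the 8 endoderm markers at 3.65, with 5 called higher, and 6 tested fibroblast markers at 1.22, with 0 called.

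**Figure D5:**
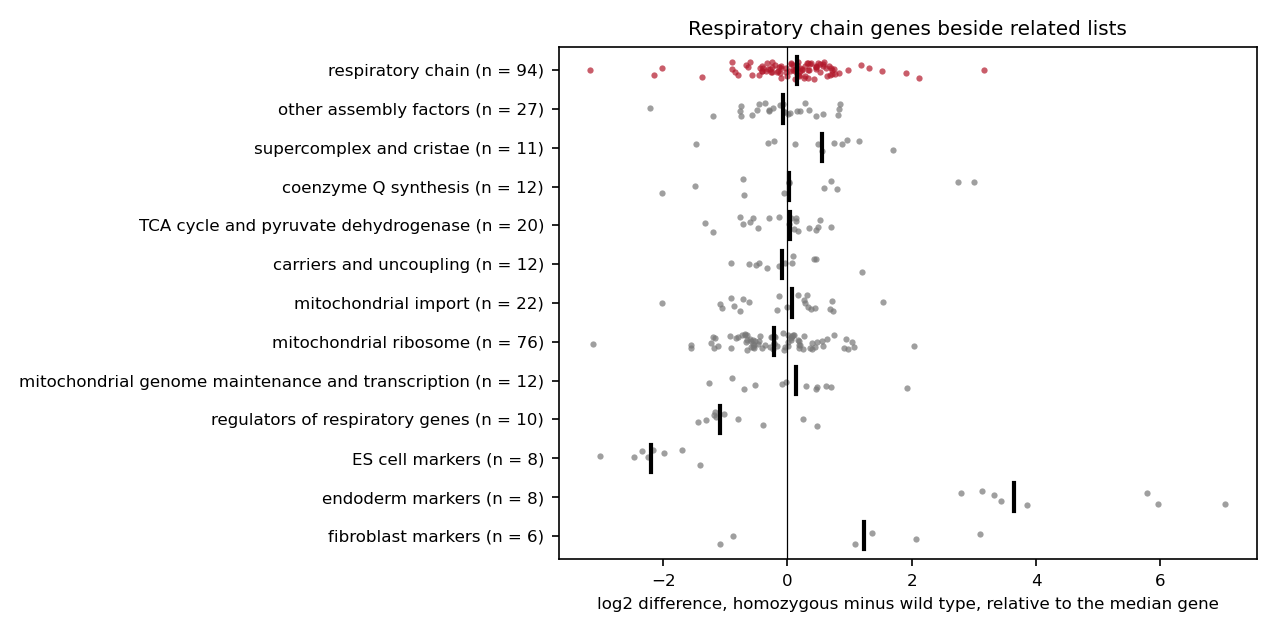
Log2 difference, homozygous minus wild type, relative to the median gene, for the 94 tested members (red) and the tested genes of related mitochondrial lists and cell type markers (grey); each point is a gene and black bars are medians. The members' bar lies at 0.15 and those of the ES cell and endoderm markers at -2.20 and 3.65.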

How the data were processed

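Trizol RNA of 4 mouse ES cell cultures was biotin labelled, per the labels' protocols, for 1 Affymetrix array a culture. The deposited values are linear MAS5 signal intensities, per the submitters' processing notes; version, scaling target and detection calls were not stated. Genes were named by the platform annotation: of 45101 probe sets, 34958 had 1 symbol, 932 several and 9211 none, and 34754 matched the RefSeq gene table (GRCm38.p6) by gene ID. All 96 members matched it under the same symbol; 10 probe sets naming a member with other genes were left out.

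The brightest single-symbol probe set stood for each gene. Of these genes, 13730 passed a filter on mean signal at 2.55, the 40th percentile of all probe sets, and were tested. The scale was log2(signal + 0.675), 0.675 being the 20th percentile of all values; it understates changes of dim genes. The authors' scaling was kept. Differences were fitted in R 4.3.3 by limma 3.58.1: 1 mean for each genotype, eBayes with an intensity trend and Benjamini-Hochberg adjustment over all tested genes at 0.05. The fit has 1 residual degree of freedom, the ko1-ko2 difference, and 47.59 in total with what limma borrowed across genes. The fit was also run on simulated arrays with known changes, independent noise and no shift between arrays. That run does not check the p-values of these data, where the arrays are shifted. A fold given as "at least" sets the brighter group's mean log2 signal against the background of the arrays of the dimmer group, relative to the median gene. The number of arrays limits the precision. The members and gene lists were chosen with earlier results of these data known. Named with values were the core subunits, the alternative isoforms, and in each complex the genes with the 2 largest rises and falls against wild type. Outside these rules, Ndufa2, Ndufa8, Ndufb11, Ndufaf4, Ndufaf8, Atp5j2, Atp5k, Atp5mpl, Atp5o, Nrf1, Ppargc1a and Esrra were named after their values were seen. Alternatives were other pseudocounts, quantile normalization, centring on the median gene or the brightest decile, averaged probe sets, no filter, no intensity trend, a fit of 2 groups, and each homozygous line left out.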

Additional observations from a re-analysis of the deposited data

How the results depend on the processing

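No member was called in homozygous minus wild type under most settings; Ndufaf3 was called with the pseudocount at the 40th percentile (1 member) and when both homozygous arrays were set against wild type and heterozygous together (1 member, counted for homozygous minus heterozygous too). The cause was not tested. In heterozygous minus wild type no setting called a member. The counts of all genes moved more. Homozygous minus wild type, 140 genes, gave 56 with a pseudocount a sixteenth as large, 33 after quantile normalization, 50 after median centring, 7 with averaged probe sets, 44 without the filter, 0 without the intensity trend and 90 in the fit of 2 groups. Homozygous minus heterozygous, 104 genes, gave 45 after quantile normalization, 48 after median centring, 10 with averaged probe sets, 55 without the filter and 0 without the trend. Heterozygous minus wild type, 2 genes, gave 1 after centring on the brightest decile and 0 with the sixteenth pseudocount, quantile normalization, median centring, averaged probe sets, no filter or no trend. The cause of these moves was not tested. In the fit of 2 groups, leaving out 1 homozygous line, an alternative chosen after seeing the data, gave 14 to 32 genes (14 without ko1, 32 without ko2) and 0 members.

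The members' median for homozygous minus wild type was 0.15 and turned to -0.02 with averaged probe sets; without 1 homozygous line it ranged from -0.08 (without ko1) to 0.16. For homozygous minus heterozygous it ranged from 0.03 (without ko1) to 0.30. The members with both homozygous arrays above the others, 4 as deposited, were 24 after quantile normalization, 18 after median centring and 20 after centring on the brightest decile, while those below stayed between 16 and 19. No member was called at the settings used in the report, so no call could be lost or reversed. Of 3008 values of single members under alternatives, 2968 kept their side of the threshold, 37 without a call changed sign or lost their test with a move beyond their SE, and 3 passed the threshold, all of Ndufaf3. No paired analysis was possible because only the homozygous group has more than 1 array, so the groups share fewer than 2 replicate numbers. Signals near background, with 18 of 96 members not above it on every array, limit the assembly factors most.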
